A study of Triticum aestivum and Triticum urartu and Aegilops speltoides with 12 samples.

Results

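Of the 42683 array features designed from bread wheat sequence, 84 were dimmer in Triticum urartu and rye than in 4 other plants. These 4 were a wheat-rye translocation line, bread wheat, Aegilops speltoides and Aegilops tauschii. Bright and dim are used below relative to each other within a feature. The 84 features were chosen by their measured levels. The log2 intensity was floored at 7 and averaged over the 2 arrays of each plant, and a feature was kept where the widest gap between neighbouring plant means was at least 2, or 4-fold, with exactly T. urartu and rye below it. The limit of 200 features set by the same rule was not reached. The low level in T. urartu and rye is therefore what chose these features and is given below as a description, with no test. The differences among the 4 plants above the gap were bounded by the rule but not selected by it, and these are tested. The share of all features set beside a count carries no such bound.

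Bread wheat is a hexaploid that carries an A, a B and a D genome side by side, each from a different diploid grass, so that many genes are present as homoeologous copies, 1 from each genome. T. urartu is the donor of the A genome and Ae. tauschii the donor of the D genome, while Ae. speltoides is a close living relative of the B genome donor and not the donor itself. Rye is a diploid of the same tribe whose chromosome arms are brought into wheat for their resistance genes. A 2BS.2RL line has kept the short arm of wheat chromosome 2B and carries 2RL, the long arm of a rye chromosome, in place of 2BL. When a probe designed from wheat is dim in a diploid relative, a low transcript level there and a mismatch between the probe and that species' transcript cannot be told apart from the signal alone.

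The study measured 6 plants on 12 single-colour NimbleGen arrays, with 2 arrays each. These were the hexaploid 2BS.2RL translocation line, hexaploid wheat (ABD), and the diploids Ae. speltoides (B), Ae. tauschii (D), T. urartu (A) and rye (R), all untreated. Each array held total RNA from leaves and roots of 2 whole seedlings, grown in a chamber and harvested at the third leaf stage on day 10, so a smaller share of a cell type and less RNA per cell cannot be told apart. The labels call the arrays of a plant biological replicates. No cultivar or accession is given, each species is represented by 1 source as far as the labels say, and the sources used here do not say which slide held which array. The features carry IDs only: none of the 84 matched the wheat gene table used here (0 of 84), so no gene name, chromosome or sequence is given, and leaf and root markers could not be looked up. All 84 were read by 2 probes of 60 bases, as were 56843 of all 56855 features.

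The gap that separated T. urartu and rye from the other plants ranged from 2.00 to 4.998, with a median of 2.50. It was 3 or more, or 8-fold, for 23 features and 4 or more for 3. The gap was taken after the floor at 7. It therefore understates the separation of the 13 features whose T. urartu and rye means both lay under 7. On unfloored values, the lowest bright array stood 5.25 above the highest dim array in ESTC034026, against 4.80 in ESTC003166. The widest floored gap belonged to Taestivum_ESTC003166. This feature had 13.31 and 13.23 in the translocation line, 13.15 and 12.87 in wheat, 13.28 and 13.41 in Ae. speltoides and 13.44 and 13.31 in Ae. tauschii, against 8.03 and 7.99 in T. urartu and 7.88 and 8.07 in rye. Its 8 bright arrays lay within a narrow band, and its 4 dim arrays did too. ESTC034091 had 11.27 and 11.42 in the translocation line, 11.32 and 11.51 in wheat, 11.70 and 11.02 in Ae. speltoides and 12.70 and 12.46 in Ae. tauschii, against 6.84 and 7.25 in T. urartu and 7.54 and 6.89 in rye. Here the bright side was itself uneven, with Ae. tauschii above the other 3 plants on both arrays.

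ESTC009591 had 11.03 and 10.99 in the translocation line, 11.06 and 11.16 in wheat, 12.16 and 12.18 in Ae. speltoides and 11.34 and 11.03 in Ae. tauschii, against 6.32 and 5.88 in T. urartu and 5.54 and 6.49 in rye. It was brightest in Ae. speltoides. ESTC018852 had 12.81 and 12.96 in the translocation line, 12.88 and 12.72 in wheat, 13.27 and 11.40 in Ae. speltoides and 12.27 and 12.42 in Ae. tauschii, against 8.18 and 8.48 in T. urartu and 8.73 and 8.02 in rye. Its Ae. speltoides arrays differed more from each other than any other pair for this feature.

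At the narrow end, ESTC004046 had 12.06 and 11.91 in the translocation line, 11.98 and 11.78 in wheat, 10.88 and 10.89 in Ae. speltoides and 12.19 and 12.03 in Ae. tauschii, against 8.79 and 8.95 in T. urartu and 7.88 and 8.25 in rye, a gap of 2.02. The last feature kept, ESTC009464 with a gap of 2.00, had 8.86 and 9.20 in rye but 12.21 and 7.53 on the T. urartu arrays, and one of those lay among the bright plants. Just outside the threshold stood ESTC022373, with a gap of 1.998, and ESTC008412, with 1.99. ESTC022373 had 10.63 and 9.83 in the translocation line, 10.58 and 10.40 in wheat, 12.43 and 12.24 in Ae. speltoides and 12.02 and 11.95 in Ae. tauschii, against 8.29 and 7.88 in T. urartu and 8.37 and 8.09 in rye. ESTC008412 ranked its bright plants otherwise, with Ae. tauschii on top at 11.37 and 11.31 and the translocation line lowest at 10.26 and 10.20.

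**Figure D1:**
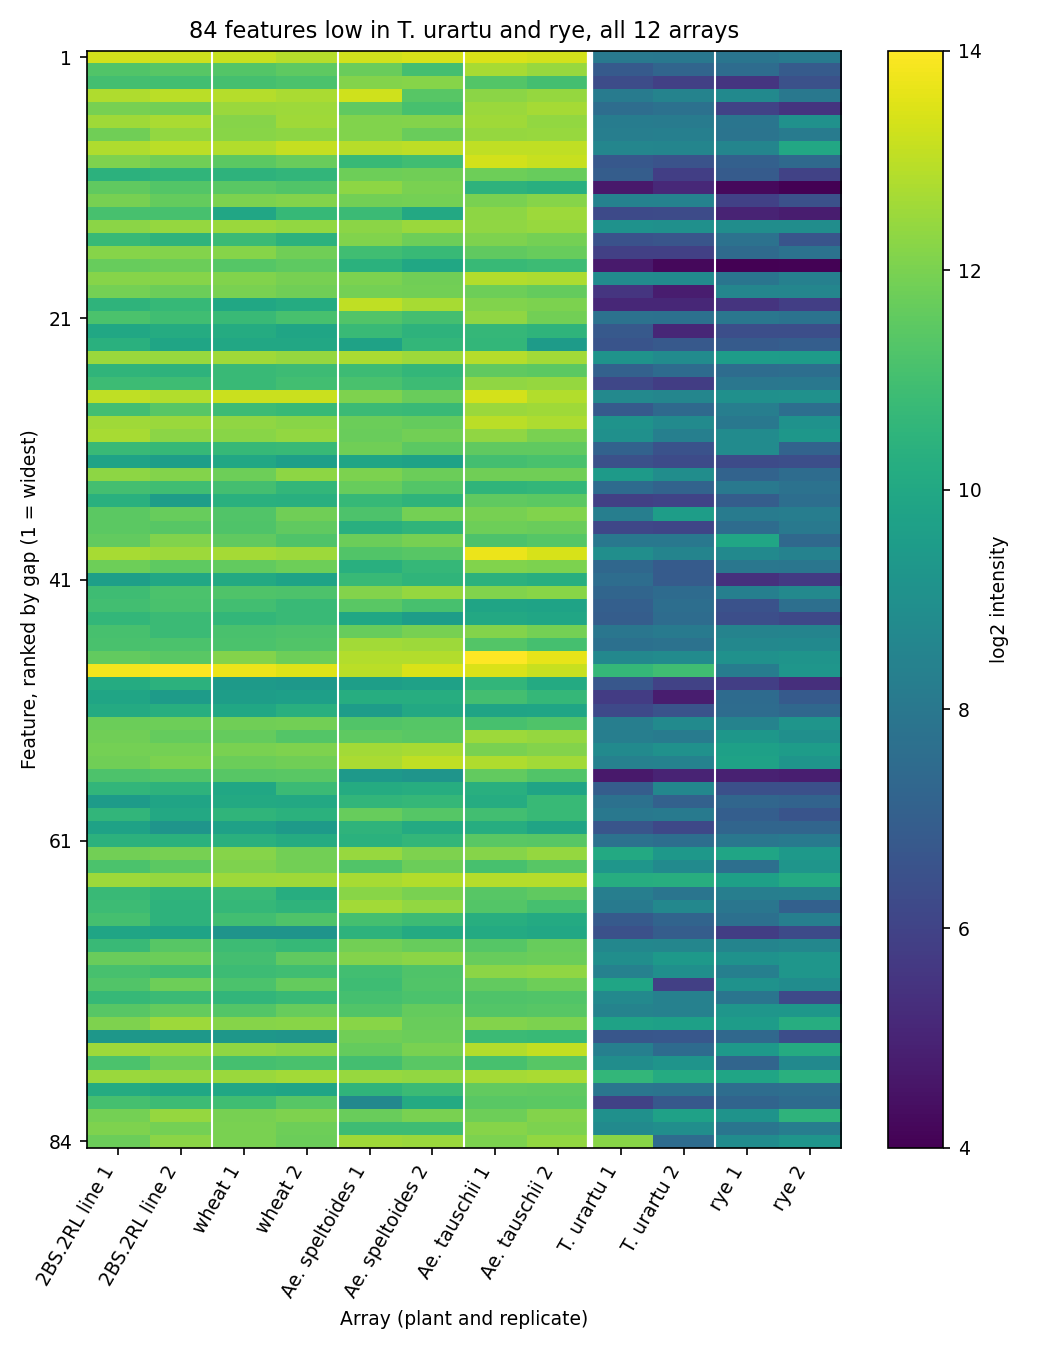
Log2 intensity of the 84 features, 1 per line in order of gap, on the 12 arrays, with the translocation line, wheat, Ae. speltoides and Ae. tauschii at the left and T. urartu and rye at the right. The 8 arrays at the left are bright and the 4 at the right dim, which the choice of features fixes, while shades within the left block vary from feature to feature.

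**Figure D2:**
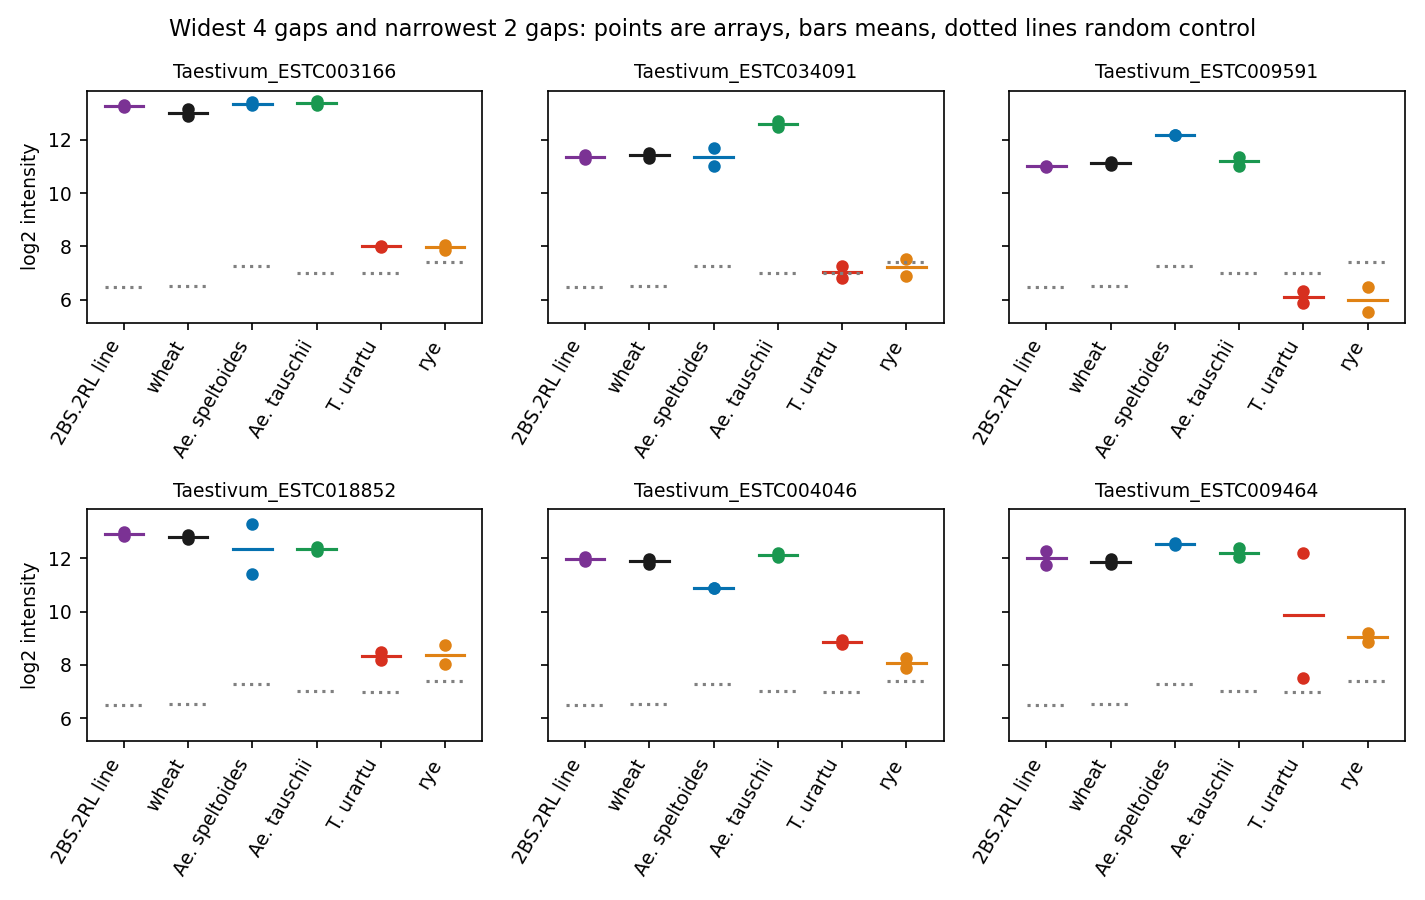
Log2 intensity of 6 features on each array (points) by plant, with the mean of the random-sequence control in each plant as a dotted line. ESTC009464 is the feature whose T. urartu arrays fall on opposite sides, at 12.21 and 7.53.

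The low level was held by both arrays of each low plant in nearly every feature. All 8 bright arrays lay above all 4 dim ones in 83 of 84 features, against 2.98% of all 56855 features, which says nothing more than the rule did. Apart from the T. urartu arrays of ESTC009464 just given, the spread within a plant reached an SD of 1 for another 11 features, in T. urartu, rye or Ae. speltoides. ESTC014969 had 9.88 and 5.90 in T. urartu, and ESTC031821 had 9.91 and 7.37 in rye. No feature had such a spread in Ae. tauschii, wheat or the translocation line. The median SD over the 84 features was 0.121 in the translocation line, 0.114 in wheat, 0.173 in Ae. speltoides, 0.110 in Ae. tauschii, 0.229 in T. urartu and 0.249 in rye (n = 2 arrays each).

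When the same rule was applied to the replicate 1 arrays alone it chose 95 features. On the replicate 2 arrays, which had no part in that choice, T. urartu and rye lay below the other 4 plants by at least 1 in 89 of the 95, against 0.834% of all features from wheat sequence, and by at least 2 in 57, against 0.216%. The other way round, 90 features were chosen on the replicate 2 arrays, and on the replicate 1 arrays 78 of them were separated by at least 1, against 0.811% of all features from wheat sequence, and 58 by at least 2, against 0.225%. At the size the rule itself requires, 38 of the 95 and 32 of the 90 were thus not separated on the arrays that had no part in the choice. The choice on a single array per plant shared 70 features with the 84 for replicate 1 and 71 for replicate 2. These counts describe only how far the signal of a plant repeated between its arrays. The arrays were normalized to each other, so the readings are not fully independent. Why the signal was low was not tested.

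The low signals ranged from under background to well above it. The signal of a control of random sequence, which summarised 6570 probes, averaged 6.48 in the translocation line, 6.53 in wheat, 7.27 in Ae. speltoides, 7.01 in Ae. tauschii, 6.99 in T. urartu and 7.41 in rye. The T. urartu signal lay at or under this control on both arrays for 24 of the 84 features, and the rye signal for 21. Both species were at or under it on all 4 arrays for 14 features, and above it on all 4 arrays for 41. ESTC009591 was the feature with the widest gap among those 14, with the gap taken after the floor at 7.

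The T. urartu mean was at least 1 above the random control for 40 features and the rye mean for 32. It was at least 2 above for 13 features in T. urartu, 9 in rye and 6 in both species, and for 68 features neither species was that far above. ESTC006192 had the highest T. urartu level, with 13.81 and 13.92 in the translocation line, 13.70 and 13.51 in wheat, 12.97 and 13.42 in Ae. speltoides and 13.43 and 13.18 in Ae. tauschii, against 10.66 and 10.94 in T. urartu and 8.20 and 9.25 in rye. T. urartu was thus clearly brighter than rye for this feature. ESTC013717 was high in both low plants, with 12.51 and 12.42 in the translocation line, 12.49 and 12.60 in wheat, 12.46 and 12.39 in Ae. speltoides and 12.66 and 12.72 in Ae. tauschii, against 10.60 and 10.17 in T. urartu and 9.88 and 10.33 in rye. ESTC005230 was similar, with 10.25 and 10.28 in T. urartu and 9.69 and 10.10 in rye below bright plants that ran between 12.42 and 12.90. Rye was above T. urartu in 49 features and below it in 35. The brighter of T. urartu and rye had a median of 16.9% of the linear intensity of the dimmest of the other 4 plants.

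**Figure D3:**
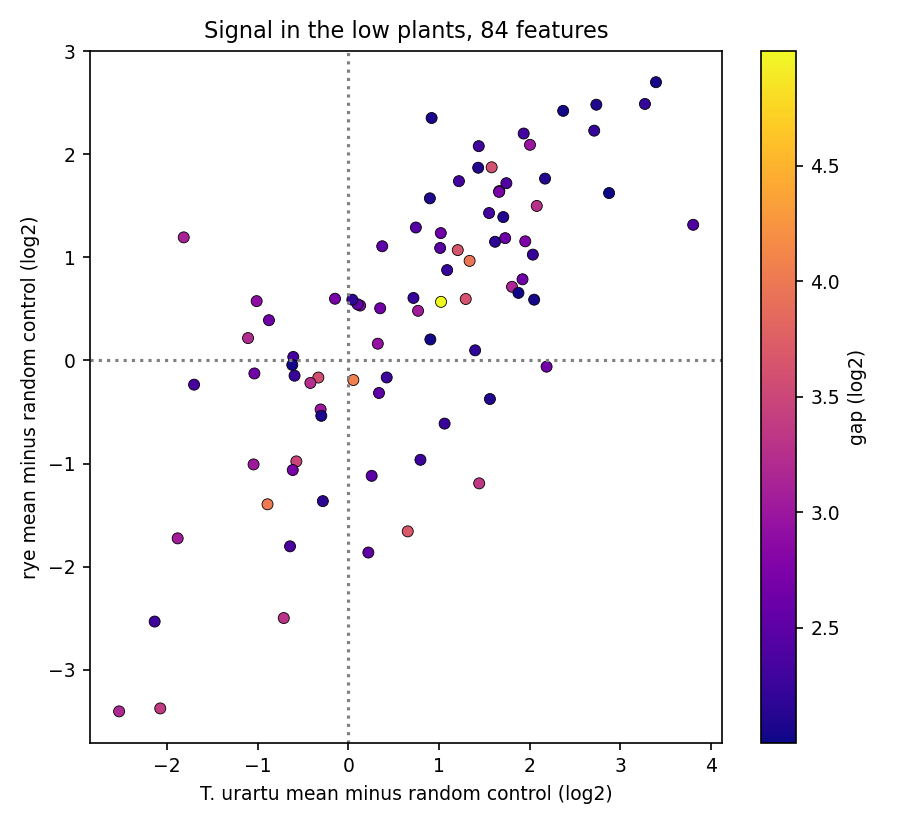
Mean log2 intensity above the random-sequence control in T. urartu (horizontal axis) and rye (vertical axis), 1 point per feature and coloured by gap. Points spread from below the control to more than 2 above it in both species, with a median of 0.90 in T. urartu and 0.58 in rye.

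On the bright side the 84 features were of moderately high intensity. Their median was 11.39 in the translocation line, 11.38 in wheat, 11.52 in Ae. speltoides and 11.74 in Ae. tauschii, where the median of all features was 10.66, 10.66, 10.63 and 10.70 in the same plants. Ae. tauschii had the highest plant mean in 39 features, Ae. speltoides in 24, the translocation line in 14 and wheat in 7. Over all features, the highest of these 4 means was that of Ae. tauschii in 32.0% and Ae. speltoides in 41.6%. It was that of the translocation line in 14.9% and wheat in 11.5%. The order in the 84 features turned with the scale. After scaling to the random control, the highest mean was that of the translocation line in 34, wheat in 19, Ae. speltoides in 7 and Ae. tauschii in 24. No share over all features was computed for these scaled counts. The scaling put the translocation line above both bright diploids in 70.6% of all features and wheat in 68.6%. The deposited intensities are relative to the total signal of each array, since normalization between arrays sets all arrays to nearly the same distribution.

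The translocation line and wheat had similar levels of most of these features. None of the 84 passed the test between the translocation line and wheat in either direction (limma, Benjamini-Hochberg adjusted p under 0.05 over all features and a log2 difference of at least 1), against 0.331% of all features higher and 0.311% lower in the translocation line. At an unadjusted p under 0.05 there were 6 features, or 7.14%, against 5.85% of all features. The median difference, translocation line minus wheat, was 0.06, with quartiles of -0.09 and 0.17, against a median of 0.00 over all features. The 95% confidence interval of the difference lay within 1 log2 unit of zero for 69 features and reached past it for 15. For those 15 a 2-fold difference was not excluded by the interval. The interval uses a spread pooled over all plants, so it also carries the spread of T. urartu and rye. ESTC009464 had an interval of -2.40 to 2.69. Its SD was 0.37 in the translocation line and 0.14 in wheat, but 3.31 in T. urartu. The feature with the greatest difference in size, ESTC018758, averaged 10.28 ± 0.18 in the translocation line and 9.39 ± 0.10 in wheat (SD, n = 2 each). Its difference of 0.90 had an interval of 0.295 to 1.497 and an adjusted p of 0.397 by limma.

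The 2 bright diploids differed from each other in 22 features. Ae. speltoides was lower than Ae. tauschii in 17 of the 84 features, or 20.2%, against 9.48% of all features, and higher in 5, or 5.95%, against 7.53% of all features. The median difference, Ae. speltoides minus Ae. tauschii, was -0.11, against 0.06 over all features. Scaled to the random control, 26 features were called lower, against 13.0% of all features, and 4 higher, against 5.47%. That scaling moved the median of all features to -0.20 and that of the 84 to -0.37. Without Ae. speltoides replicate 1, or without Ae. tauschii replicate 2, 3 features were called higher.

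The greatest deficit in Ae. speltoides was that of ESTC000778. It had 10.73 and 10.93 in Ae. speltoides, against 13.31 and 13.15 in Ae. tauschii. Its difference was -2.40 (95% interval -2.79 to -2.01), or 5.27-fold, with an adjusted p of 8.18e-06 by limma. The hexaploids lay between the diploids, with 12.05 and 11.84 in the translocation line and 11.47 and 11.72 in wheat, and T. urartu and rye were between 6.58 and 7.41. ESTC033587 had 11.27 and 11.41 in Ae. speltoides, against 13.70 and 13.40 in Ae. tauschii, a difference of -2.22 (-2.65 to -1.78, adjusted p of 2.71e-05 by limma). Its hexaploids were again in between, with 12.70 and 12.54 in the translocation line and 12.67 and 12.53 in wheat.

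In the other direction, ESTC033424 had 12.30 and 12.00 in Ae. speltoides, against 10.45 and 10.31 in Ae. tauschii. The difference was 1.77 (1.28 to 2.26), or 3.41-fold, with an adjusted p of 0.000238 by limma. The translocation line had 11.56 and 11.31 and wheat 11.44 and 11.28, between both diploids, and all T. urartu and rye arrays were at 5.16 or lower, which put this feature among those under the random control. ESTC035882 had 11.43 and 11.08 in Ae. speltoides, against 9.84 and 9.78 in Ae. tauschii, a difference of 1.44 (0.69 to 2.19, adjusted p of 0.00972 by limma). Without Ae. speltoides replicate 1 its difference was 1.27 with an adjusted p of 0.053, and the call was lost. ESTC035882 had 10.97 and 11.14 in the translocation line and 10.95 and 10.79 in wheat, which were nearer to Ae. speltoides.

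Where the bright diploids differed, the hexaploids did not follow one of them throughout. Of the 17 features lower in Ae. speltoides, the translocation line was nearer to Ae. speltoides in 8 and nearer to Ae. tauschii in 9, and wheat nearer to Ae. speltoides in 9 and to Ae. tauschii in 8. Over all features called lower in Ae. speltoides, the translocation line was nearer to Ae. speltoides in 32.9% and wheat in 33.1%. These nearness counts depend on the scale: after scaling to the random control, the translocation line was nearer to Ae. speltoides in 3 of the 17 and wheat in 5, against 11.15% and 11.02% over all such features. Of the 5 features higher in Ae. speltoides, both hexaploids were nearer to it in 2 and nearer to Ae. tauschii in 3. Over all features called higher in Ae. speltoides, the translocation line was nearer to it in 54.5% and wheat in 53.7%. Nearness was not tested.

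The translocation line lay within 0.5 of the Ae. speltoides mean in 5 of the 17, within 0.5 of the Ae. tauschii mean in 7, and near neither in 5. Wheat lay within 0.5 of the Ae. speltoides mean in 7 of the 17, within 0.5 of the Ae. tauschii mean in 7, and near neither in 3. For wheat, ESTC004046, given above, was 1 of those near Ae. tauschii, and ESTC034091 was near Ae. speltoides. The translocation line and wheat were nearer to the same diploid in 19 of the 22 features called in either direction. No share over all features was computed for these counts. The hexaploids were also alike over all features, where the translocation line minus wheat had quartiles of -0.13 and 0.13.

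Set against the mean of both bright diploids on the log2 scale, each hexaploid was called lower more often than higher. The translocation line was lower in 10 of the 84 features, or 11.9%, against 4.72% of all features, and higher in 1, or 1.19%, against 8.64%. Wheat was lower in 11, or 13.1%, against 3.82% of all features, and higher in 1, or 1.19%, against 8.42%. The rule required both diploids to lie above the gap, with lowest means of 9.29 in Ae. speltoides and 9.81 in Ae. tauschii. All features include those dim in either diploid, where a hexaploid can exceed the diploid mean for that reason. The shares are therefore not like for like. The median difference was -0.20 for the translocation line and -0.26 for wheat, against -0.12 for each over all features. These counts turned with the scale. Scaled to the random control, the translocation line was higher in 16, against 19.2% of all features, and lower in 3, against 0.981%. Wheat was then higher in 12, against 17.1% of all features, and lower in 2, against 0.848%. That scaling adds the same amount to every feature of an array, and the median of all features became 0.54 for the translocation line and 0.49 for wheat. After cyclic loess the median of the 84 was -0.04 for the translocation line and -0.14 for wheat, against 0.00 and -0.01 over all features. Without translocation line replicate 2, 5 features were called lower in that line, and without wheat replicate 1, 7 were called lower in wheat. The count of higher calls was 2 for the translocation line without Ae. speltoides replicate 1. For wheat it was 2 without wheat replicate 1 or either Ae. speltoides array, and 0 without Ae. tauschii replicate 2. Both comparisons use the same diploid arrays, so the hexaploids' values are not independent.

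ESTC018794 showed the greatest deficit in both hexaploids together. It had 10.49 and 10.68 in the translocation line and 9.94 and 10.17 in wheat, against 13.05 and 12.71 in Ae. speltoides and 12.11 and 12.02 in Ae. tauschii. The hexaploid arrays were all below the diploid ones, and T. urartu and rye were at 5.85 or lower. The difference from the diploid mean was -1.89 in the translocation line (95% interval -2.23 to -1.54, adjusted p of 2.37e-05 by limma) and -2.42 in wheat (-2.77 to -2.07, adjusted p of 5.53e-06). ESTC005295 had 9.31 and 9.32 in the translocation line and 9.31 and 9.21 in wheat, against 11.85 and 11.77 in Ae. speltoides and 10.82 and 10.75 in Ae. tauschii. Its difference was -1.98 in the translocation line (-2.51 to -1.45, adjusted p of 0.000256 by limma) and -2.04 in wheat (-2.57 to -1.51, adjusted p of 0.000226). After scaling to the random control both features were still called lower in both hexaploids, by smaller differences. For ESTC018794 they were -1.23 in the translocation line and -1.81 in wheat, and for ESTC005295 -1.33 and -1.43.

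The only feature called higher in the translocation line than in the diploid mean was ESTC034026. It had 11.66 and 11.77 in the translocation line and 11.34 and 11.52 in wheat, against 10.39 and 9.96 in Ae. speltoides and 10.72 and 10.84 in Ae. tauschii. The difference was 1.24 in the translocation line (0.85 to 1.63, adjusted p of 0.000705 by limma), and 0.95 in wheat (0.56 to 1.35, adjusted p of 0.00332), which was under the required size. The only feature called higher in wheat was ESTC038004, which was singled out after its values were seen. It had 11.20 and 11.29 in the translocation line and 11.40 and 11.45 in wheat, against 9.36 and 9.22 in Ae. speltoides and 11.61 and 11.28 in Ae. tauschii, so its wheat level was that of Ae. tauschii and its distance from the diploid mean came from Ae. speltoides.

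ESTC037943 was among the features called lower in each hexaploid, with 11.60 and 11.46 in the translocation line and 12.16 and 11.79 in wheat, against 12.86 and 12.85 in Ae. speltoides and 14.03 and 13.63 in Ae. tauschii.

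**Figure D4:**
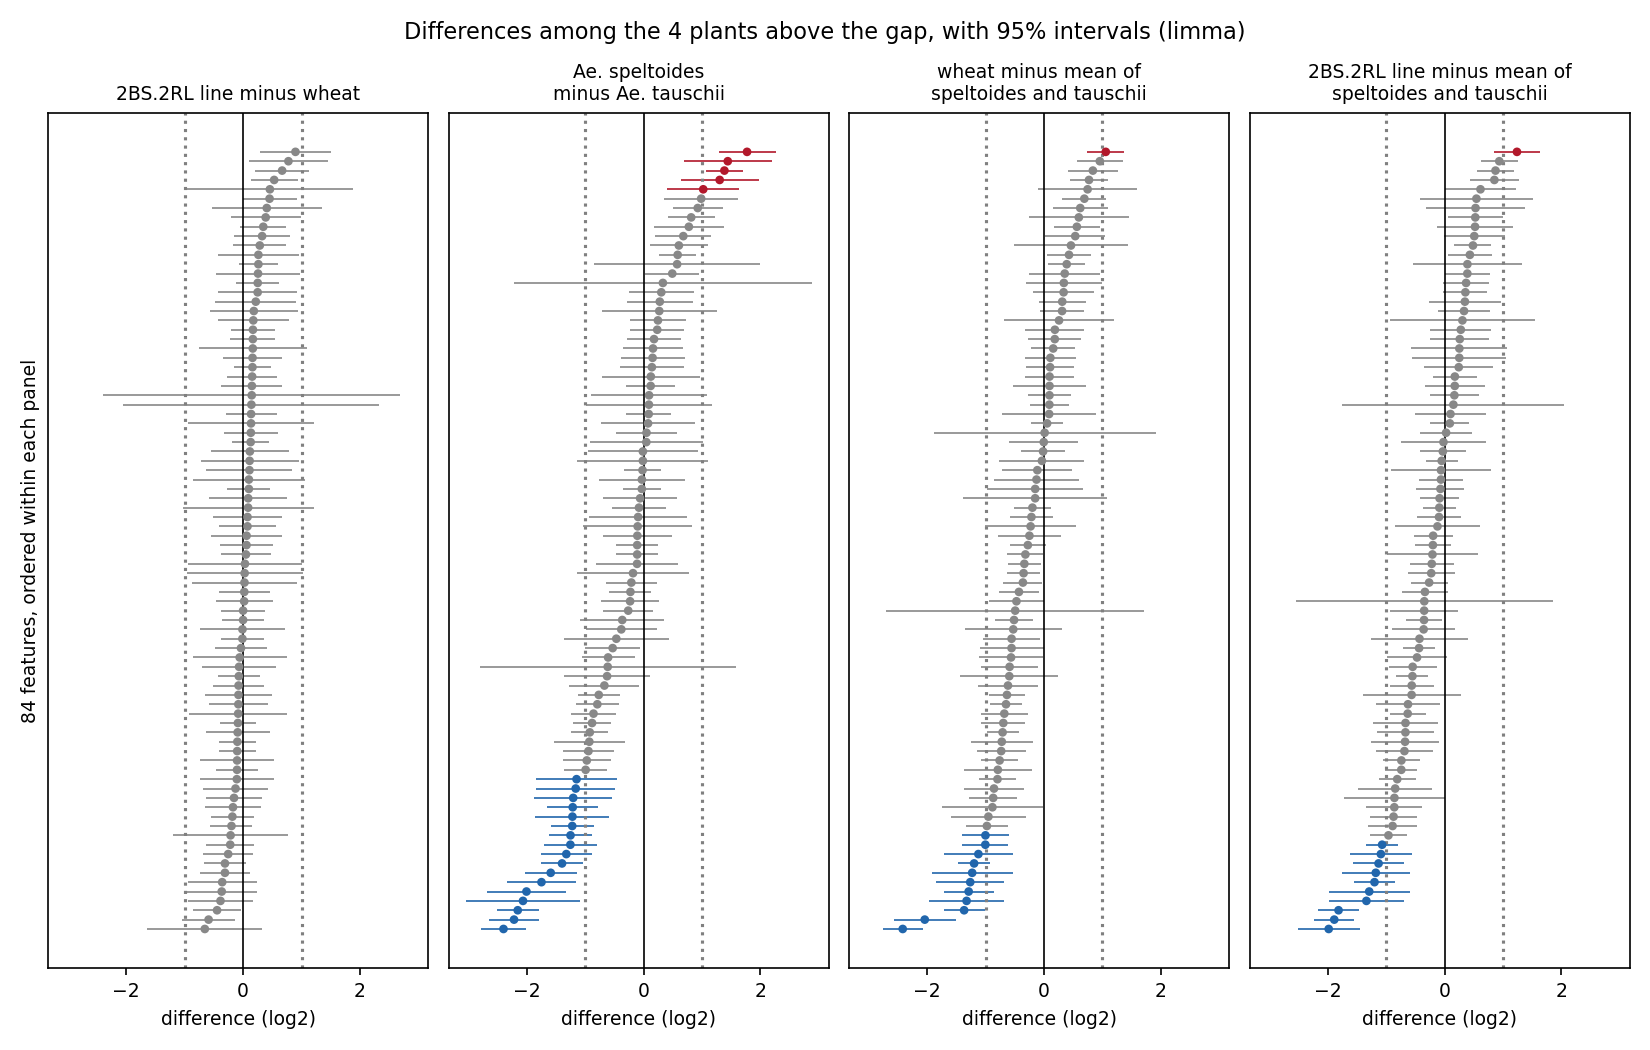
Log2 differences with 95% confidence intervals for the 84 features, ordered by size in each panel, for translocation line minus wheat, Ae. speltoides minus Ae. tauschii, wheat minus the mean of both diploids and translocation line minus that mean. Features called higher are red, called lower blue and not called grey: the first panel is grey throughout, and the second has 17 blue and 5 red.

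The hexaploid means were also placed among those of both bright diploids, with no test. The translocation line was below both in 40 features, between them in 28 and above both in 16. Wheat was below both in 40, between in 26 and above both in 18. The share below both was 47.6% for each hexaploid, against 44.1% of all features for the translocation line and 44.4% for wheat. The share above both was 19.0% for the translocation line and 21.4% for wheat, against 22.2% and 21.2% of all features. These positions also depended on the scale. After scaling to the random control, the translocation line was above both in 49 features, or 58.3%, against 70.6% of all features, and wheat in 45, or 53.6%, against 68.6%. They were then below both in 15 features for the translocation line, or 17.9%, against 7.79%, and in 13 for wheat, or 15.5%, against 7.67%.

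The hexaploids were also set against the linear mean of T. urartu, Ae. speltoides and Ae. tauschii. The translocation line was above that mean by a median of 0.29 (quartiles -0.18 and 0.71), against -0.15 over all features. Wheat was above it by a median of 0.22 (quartiles -0.26 and 0.64), against -0.15 over all features. It exceeded the mean in 53 features for the translocation line and in 48 for wheat. As T. urartu enters this mean and was chosen to be low, these are descriptions with no test.

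The comparison with features in which another diploid was low beside rye showed similar values. The same rule found 177 features with Ae. speltoides and rye low and 64 with Ae. tauschii and rye low. Wheat minus the log2 mean of the bright diploids had a median of -0.26 in the 84 features, -0.24 in those low in Ae. speltoides and rye and -0.29 in those low in Ae. tauschii and rye. For the translocation line these medians were -0.20, -0.18 and -0.29. No feature of the 3 sets was called between the translocation line and wheat (0 of 84, 0 of 177 and 0 of 64), against 0.642% of all features. At that share few or no calls fall in sets of this size, so these zeros do not set the features apart. Differences between the sets were not tested.

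Of the 84 features, 9 had an ID number within 3 of another, and the sources used here do not say what that order stands for. Of 155 other features 1 number away, 11 had T. urartu and rye below a widest gap of any size. Among all 42683 features from wheat sequence, 672 had this. ESTC036214 and ESTC036216, a pair not described below, were not called between Ae. speltoides and Ae. tauschii. ESTC034088, ESTC034089 and ESTC034091 were all lower in Ae. speltoides than in Ae. tauschii, and wheat lay within 0.12 of the Ae. speltoides mean in each. ESTC034088 had 11.08 and 11.07 in the translocation line, 9.90 and 10.69 in wheat, 10.83 and 10.02 in Ae. speltoides and 12.30 and 12.55 in Ae. tauschii. Its neighbour ESTC034089 had 10.86 and 10.88 in the translocation line, 10.78 and 10.99 in wheat, 11.12 and 10.84 in Ae. speltoides and 12.33 and 12.42 in Ae. tauschii. In both, Ae. tauschii stood alone at the top.

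ESTC038004 and ESTC038005 were also lower in Ae. speltoides, but here wheat lay at the Ae. tauschii level, at -0.02 and 0.08 from its mean. ESTC038005 had 13.04 and 12.84 in the translocation line, 13.21 and 13.18 in wheat, 12.07 and 11.73 in Ae. speltoides and 13.37 and 12.86 in Ae. tauschii, against 8.72 and 8.59 in T. urartu and 9.03 and 9.07 in rye. ESTC000864 and ESTC000865 did not share a pattern on the bright side. Wheat was 0.97 above the Ae. speltoides mean and -0.35 from the Ae. tauschii mean for ESTC000864, while for ESTC000865 it was below both, at -0.76 from Ae. speltoides and -1.64 from Ae. tauschii.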

How the data were processed

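The deposited values are linear intensity values, a single value for each feature on each array. RMA was run by the authors, per the submitters' processing notes, and the sources used here give no version. The raw probe table has 12 value columns whose codes match no label, so these were not used and only its probe IDs were counted. The 8 control features were left out of the fit, and log2 was taken without an offset. The limma package (3.58.1, R 4.3.3) was used to fit a group-means model to 56855 features on 12 arrays, and adjusted p-values (Benjamini-Hochberg) run over all features. Tables and figures were made in Python 3.11.15 with numpy 2.4.6, pandas 2.3.3 and matplotlib 3.10.9, and the fit was tested on simulated data. ID prefixes were read as the species of the source sequence.

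Features described singly were the 4 with the widest gap, 2 on each side of the threshold, the 2 called in each direction of a contrast with the greatest difference whose arrays did not overlap, the widest gap with T. urartu and rye at or under the random control, and the 2 highest in each of those species. Neighbours by ID, examples of wide spread and other features named in the text were added after their values were seen. The features and comparisons were chosen with earlier results of these data known. With 2 arrays per plant, p-values measure the spread between those arrays, pooled over plants, and their number limits the precision. Slide could not be tested as a batch. Alternatives were other scalings, floors and filters, an intensity trend, a replicate block and leaving out each array.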

Additional observations from a re-analysis of the deposited data

Results flagged for a closer look

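The rule was applied to features from wheat sequence, and 7 features from other species' sequences met the same pattern, outside the 84. Of these, 6 came from Ae. speltoides sequence, or 0.241% of its features, against 0.197% of those from wheat sequence. The other was 1 of 5724 features from einkorn, a diploid wheat related to T. urartu, or 0.0175%. Of 5731 features from rye sequence, 0 met the pattern. The einkorn feature, Tmonococcum_ESTC005011, had a gap of 2.9999. It averaged 11.28 in the translocation line, 11.23 in wheat, 11.38 in Ae. speltoides and 11.67 in Ae. tauschii, against 8.23 in T. urartu and 7.38 in rye (n = 2 each), so a sequence from an A-genome species was dim in the A-genome plant measured. Among features from Ae. speltoides sequence, Aspeltoides_ESTC001501 averaged 10.01 in Ae. speltoides and 12.13 in Ae. tauschii, below the other diploid in the species it was designed from. Aspeltoides_ESTC001301 and Aspeltoides_ESTC002237 went the other way, with 12.78 and 10.67 in Ae. speltoides against 12.13 and 9.48 in Ae. tauschii. Aspeltoides_ESTC002386, Aspeltoides_ESTC002398 and Aspeltoides_ESTC001863 were lower in Ae. speltoides, with 12.68, 11.43 and 10.22 against 12.73, 12.30 and 10.55. With 2 arrays per plant, single arrays were not tested as outliers.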

How the results depend on the processing

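A floor of 6 kept all 84 features among 94, and a floor of 8 kept 67 among 68. Cyclic loess gave 106 features with 82 shared, and scaling to the random control gave 127 with 77 shared. Single arrays per plant gave 90 to 95.

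Between the translocation line and wheat there were 0 calls under every alternative run. Between Ae. speltoides and Ae. tauschii, scaling to the random control gave 26 lower. Leaving out 1 array gave 16 to 22 calls in all, 3 to 5 higher and 12 to 18 lower. For wheat against the diploid mean, cyclic loess gave 3 higher and 6 lower, scaling to the random control 12 and 2, and a linear diploid mean, with no test, 0 higher. Leaving out 1 array gave 0 to 2 higher and 7 to 12 lower, the 7 without wheat replicate 1. For the translocation line, cyclic loess gave 4 higher and 6 lower, and scaling to the random control 16 and 3, or 19 in all. Leaving out the dimmest 25% of features gave 0 higher, because ESTC034026, the only feature called higher, was itself left out by that filter. Leaving out 1 array gave 6 to 13 in all, 1 to 2 higher and 5 to 11 lower, with 6 in all and 5 lower without translocation line replicate 2. The cause of the other shifts was not tested.

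Of 83 counts under alternatives other than leaving out arrays, 70 were within 1.5 times and the 13 given here were not. With the replicate number as a block the counts did not move (0 calls, 5 higher and 17 lower, 1 and 11, 1 and 10). Of 99 values of singly named features, 98 stayed on the same side of the threshold, and none turned.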

Other observations

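Of all 56855 features, 2489 came from Ae. speltoides sequence and 42683 from wheat sequence. For 7 of the 84 features, the feature with the most similar levels over the 12 arrays came from Ae. speltoides sequence. For the other 77 it came from wheat sequence. The closest of these pairs joined ESTC002800 with Aspeltoides_ESTC001301, with a root mean square difference of 0.18 on the log2 scale. For 57 of the 84, the most similar feature was itself among the 84. These matches used the same 12 arrays that chose the 84, and no share over all features was computed.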
